A study of Mus musculus with 6 samples.

Results

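The 4 mouse Notch receptors (Notch1, Notch2, Notch3 and Notch4), 4 of their ligands (Dll1, Dll4, Jag1 and Jag2), the Notch target Hes1 and the secretory fate factor Atoh1 were followed in RNA-seq of mouse intestine. These 10 genes were taken by symbol from a table of 25416 rows, and all 10 were found. Notch receptors are cleaved when a Delta or Jagged ligand on a neighbouring cell binds them, and the released intracellular part enters the nucleus, joins the DNA-binding protein Rbpj and switches on targets such as Hes1. In the intestinal crypt Hes1 represses Atoh1, so that cells receiving a Notch signal become absorptive, while cells that escape it switch on Atoh1, display Delta ligands and become goblet, Paneth or enteroendocrine cells. Outside the epithelium the pathway is best known from blood vessels, where Notch4 marks endothelium and Notch3 the mural cells, that is, pericytes and vascular smooth muscle.

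The study compared 3 libraries of intestine labelled HET, carrying the S254D change in the ubiquitin ligase Rnf111, with 3 libraries labelled WT. The sources used here give no strain, age, sex or segment of intestine. They do not say whether each library is a separate animal, and the p-values rest on a spread between libraries that may be technical only. Levels are FPKM, fragments scaled to depth and to transcript length, which allows a rough comparison between genes. Whether coverage was even along long transcripts was not checked. Unless stated otherwise, a level is the mean FPKM ± SD over n = 3 libraries of a genotype, HET given before WT, and log2 fold changes are HET minus WT on log2(FPKM + 1), a scale that understates the change of weakly expressed genes. A gene is said to have risen or fallen where the adjusted p of limma, fitted over all 11870 rows that reached an FPKM of 1 in 3 or more libraries, was under 0.05 after Benjamini-Hochberg adjustment.

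Some features of the whole table touch the values that follow. The lowest FPKM values implied a rough depth, in units of 1e6 fragments, of 19.6 to 22 for the HET and 20.7 to 25.8 for the WT libraries. Of all tested rows, 35.7% were called lower and 10.7% higher in HET, and the middle log2 fold change over those rows was -0.12. Under quantile normalization that median was 0.04, so a small shift of a single gene in either direction depends on the scaling. Counts of called genes in the lists and marker sets below are to be read beside those shares of 35.7% and 10.7%. Rnf111 itself, the altered gene, was at 4.501 ± 0.296 and 5.198 ± 0.1996 (limma adjusted p = 0.0609). The tissue label was matched by epithelial markers, among which Krt19 was at 678 ± 94.0 and 541 ± 38.3 and Cdh1 at 111 ± 9.38 and 125 ± 5.06.

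Of the 10 genes, 7 passed the filter on low values and 3 (Notch3, Notch4 and Jag2) did not, because they stayed under an FPKM of 1 in every library. Of the 7, 3 fell in HET (Notch1, Dll4 and Atoh1), 0 rose and 4 did not pass (Notch2, Dll1, Jag1 and Hes1). At an unadjusted p under 0.05 limma again gave 3 lower and 0 higher. The share lower stands beside 35.7% of all tested rows, so the count itself does not set these genes apart. Over the 7, the median log2 fold change was -0.10, against -0.12 over all tested rows. In the table of single libraries all 3 HET values lay below all 3 WT values for 6 of the 10 genes, a pattern found for 43.8% of the tested rows and for 55.8% of the rows with a mean FPKM from 0.2 up to 1. The reverse order, with 0 of the 10 genes, held for 16.0% of the tested rows, and the groups overlapped for the other 4 genes. Fewer cells of a type and less RNA per cell cannot be told apart in such bulk samples.

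**Figure D1:**
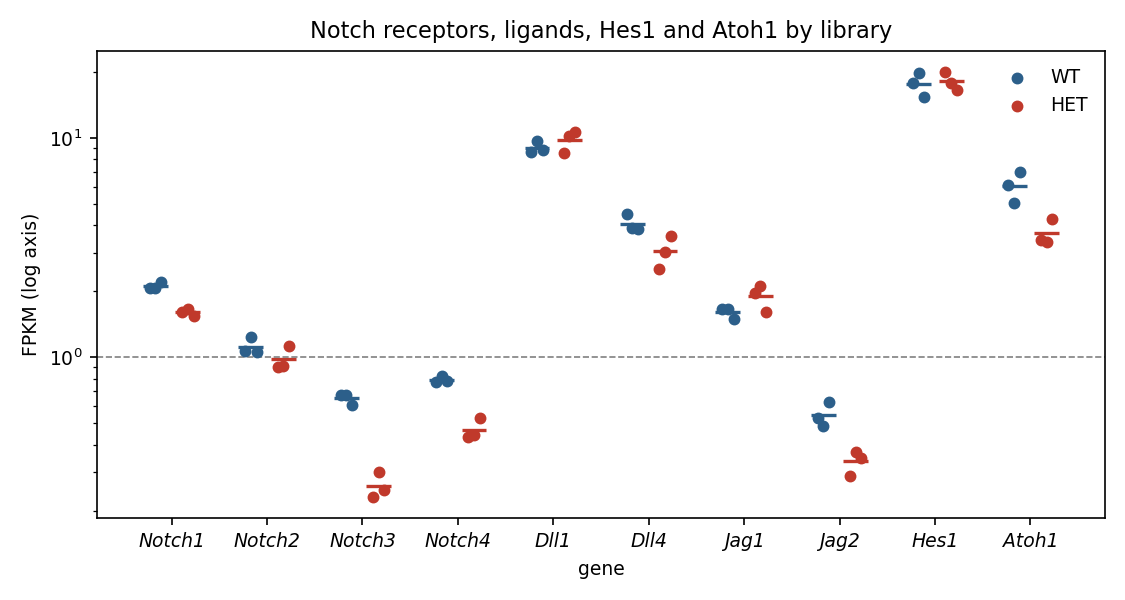
FPKM (log axis) of each of the 10 genes in the 3 WT libraries (blue) and the 3 HET libraries (red), with short bars at the group means and a dashed line at an FPKM of 1, the filter. Hes1 was the most abundant and overlapped between genotypes, Atoh1 was at 3.37 to 4.28 in HET and 5.04 to 7.01 in WT, and Notch3, Notch4 and Jag2 lay below the line throughout.

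The levels spanned from Hes1, at 17.7 ± 2.19 in WT, to Jag2, at 0.547 ± 0.0709. In WT the order from high to low was Hes1, Dll1, Atoh1, Dll4, Notch1, Jag1, Notch2, Notch4, Notch3 and Jag2, and among neighbours in that order the library ranges overlapped for Notch3 and Jag2. In HET the order was Hes1, Dll1, Atoh1, Dll4, Jag1, Notch1, Notch2, Notch4, Jag2 and Notch3. There the ranges of Atoh1 and Dll4, of Jag1 and Notch1, and of Jag2 and Notch3 overlapped. The Delta ligands and the switch genes Hes1 and Atoh1 were thus each present at higher FPKM than any of the 4 receptors in both genotypes.

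Among the receptors, Notch1 (ENSMUSG00000026923), the receptor that with Notch2 keeps crypt progenitors from secretory fate, was at 1.62, 1.67 and 1.55 FPKM in the respective HET libraries, against 2.07, 2.06 and 2.22 in WT. Every HET value lay below every WT value. Notch1 fell, with a log2 fold change of -0.25 (SE 0.06, 95% confidence interval -0.39 to -0.12, limma adjusted p = 0.0117), a 1.31-fold difference of mean FPKM. The call remained when any 1 library was left out (adjusted p = 0.0202 to 0.0480) but not with median-ratio factors over all rows above 0 (-0.12, adjusted p = 0.108) or with quantile normalization, where the log2 fold change was 0.05 (adjusted p = 0.461). T cells also carry Notch1. Of 8 lymphocyte markers 6 were tested and all 6 fell, the sum of the 8 being 28.5 to 32.2 FPKM in HET and 57.4 to 61.5 in WT. Their part in the Notch1 difference was not tested.

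Notch2 (ENSMUSG00000027878) was at 0.903, 0.915 and 1.13 FPKM in HET and at 1.07, 1.23 and 1.05 in WT. HET replicate 3 lay among the WT values, and the other two HET libraries lay below them. Its log2 fold change of -0.10 (95% confidence interval -0.27 to 0.08) did not pass (limma adjusted p = 0.319). With quantile normalization it was called higher instead, at a log2 fold change of 0.31 (adjusted p = 0.0164), so these libraries fix no direction for Notch2.

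Notch3 (ENSMUSG00000038146), the receptor of mural cells, was at 0.232, 0.300 and 0.247 FPKM in HET and at 0.675, 0.670 and 0.606 in WT. The groups did not overlap, and the WT mean was 2.51-fold that of HET, the widest ratio among the 10 genes. These levels rest on roughly 37 to 134 fragments per library, by the rough depth and the longest annotated transcript. Fitted without the filter, Notch3 was lower in HET (log2 fold change -0.39, limma adjusted p = 0.00186), and it stayed lower with any 1 library left out and with quantile normalization (-0.18, adjusted p = 0.0294).

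Notch4 (ENSMUSG00000015468), the endothelial receptor, was at 0.432, 0.441 and 0.528 FPKM in HET and at 0.771, 0.825 and 0.778 in WT. Here too the groups did not overlap, and the WT mean was 1.69-fold that of HET. Without the filter Notch4 was lower (log2 fold change -0.29, limma adjusted p = 0.00622), again with any 1 library left out, but with quantile normalization the log2 fold change was -0.02 (adjusted p = 0.790). In that fit without a filter 27.5% of 20963 rows were lower and 5.75% higher. Of the 3260 rows with a mean FPKM from 0.2 up to 1, the band that holds Notch3, Notch4 and Jag2, 45.7% were called lower.

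**Figure D2:**
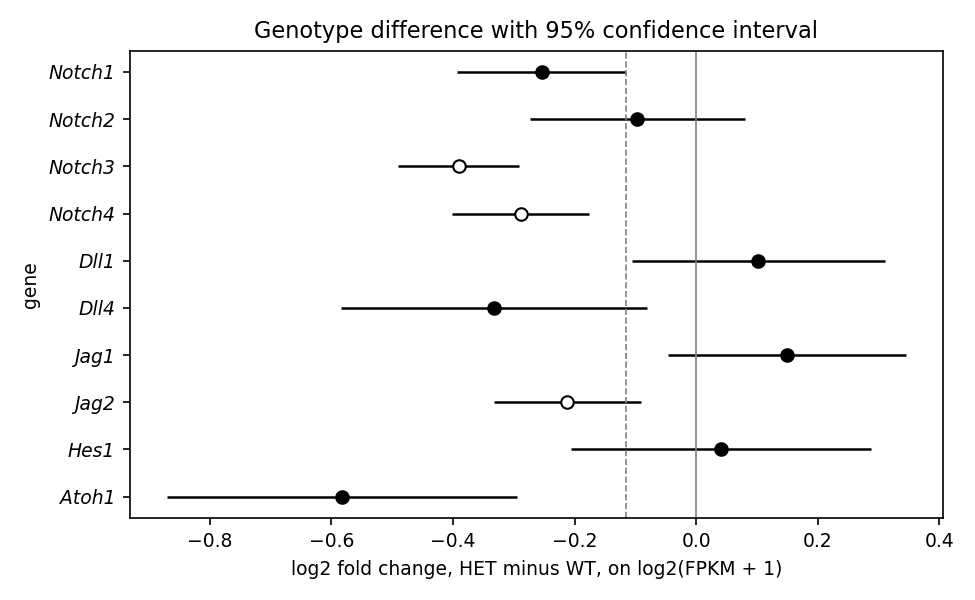
Log2 fold change (HET minus WT, on log2(FPKM + 1)) of each gene with its 95% confidence interval, from limma over all tested rows (filled points) or, for the 3 genes under the filter, from the fit without a filter (open points). The dashed line marks the median of all tested rows, -0.12. The intervals of Notch2, Dll1, Jag1 and Hes1 span 0.

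Among the ligands, Dll1 (ENSMUSG00000014773), a Delta ligand shown by secretory progenitors, was at 8.56, 10.2 and 10.7 FPKM in HET and at 8.65, 9.65 and 8.79 in WT. The HET values bracketed the WT values, and the log2 fold change of 0.10 (95% confidence interval -0.11 to 0.31) did not pass (limma adjusted p = 0.370). With median-ratio factors over all rows above 0, Dll1 was called higher (0.30, adjusted p = 0.0313). Jag1 (ENSMUSG00000027276), a Jagged ligand of epithelium and vessels, was at 1.97, 2.11 and 1.603 in HET and at 1.67, 1.65 and 1.49 in WT. HET replicates 1 and 2 lay above every WT library and HET replicate 3 among them. Its log2 fold change of 0.15 did not pass (adjusted p = 0.178), but it did without HET replicate 3 (0.22, adjusted p = 0.0454), with median-ratio scaling (0.24, adjusted p = 0.0446) and with quantile normalization (0.46, adjusted p = 0.00567).

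Dll4 (ENSMUSG00000027314), the Delta ligand of secretory crypt cells and of sprouting endothelium, was at 2.53, 3.02 and 3.58 FPKM in HET and at 4.498, 3.88 and 3.84 in WT. The highest HET value lay below the lowest WT value, though by less than the spread within either genotype. Dll4 fell at the threshold, with a log2 fold change of -0.33 (SE 0.11, 95% confidence interval -0.58 to -0.08, limma adjusted p = 0.0386). Of the 6 fits that leave out 1 library, the one without HET replicate 3 kept the call (adjusted p = 0.0123) and the other 5 lost it (adjusted p up to 0.125). It was called under 0 of the 4 other scalings. Of 15 endothelial markers 14 were tested and all 14 fell (10 to 14 with a library left out), their sum being 21.6 to 30.8 FPKM in HET and 47.5 to 50.4 in WT, and all 5 Paneth markers fell. Their part in the Dll4 difference was not tested.

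Jag2 (ENSMUSG00000002799), a Jagged ligand known from endothelium, was at 0.287, 0.371 and 0.348 FPKM in HET and at 0.528, 0.487 and 0.625 in WT. The groups did not overlap, on roughly 29 to 82 fragments per library. The fit without the filter called it lower (log2 fold change -0.21, limma adjusted p = 0.0217), but without HET replicate 1 the adjusted p was 0.0549, without WT replicate 1 it was 0.0574, and with quantile normalization the log2 fold change was 0.00160.

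Dll1 and Jag1, the ligands that did not fall, are shown with the 250 bases before a start site because both windows hold the E-box letters that class II basic helix-loop-helix factors such as Atoh1 can bind. The sequences are from RefSeq on GRCm38.p6, both on the minus strand and written 5′ to 3′, Dll1 at chr17:15376933-15377182 (1 of 2 listed starts) and Jag1 at chr2:137116521-137116770. Capitals mark the E-box CAGCTG, at 132 bases before the start in Dll1 and 82 in Jag1, and the Hes class C letters CACGCG on either strand, which read CGCGTG on the other.
Dll1: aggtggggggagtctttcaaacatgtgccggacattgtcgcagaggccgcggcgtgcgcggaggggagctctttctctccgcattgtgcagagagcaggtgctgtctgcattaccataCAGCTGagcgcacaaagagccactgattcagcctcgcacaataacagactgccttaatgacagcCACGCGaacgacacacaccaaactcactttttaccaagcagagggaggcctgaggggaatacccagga
Jag1: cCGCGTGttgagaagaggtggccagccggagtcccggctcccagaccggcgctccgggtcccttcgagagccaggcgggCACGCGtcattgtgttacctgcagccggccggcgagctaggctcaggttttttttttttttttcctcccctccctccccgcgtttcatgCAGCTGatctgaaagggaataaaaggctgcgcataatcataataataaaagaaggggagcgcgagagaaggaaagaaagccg
CAGCTG was present in 2 of 10 windows of 9 of these genes (Hes1 had no entry) and in 4271 of the 32851 windows of all genes. The Rbpj core TGGGAA, searched on both strands, was in 0 of the 10 windows and in 21.6% of all. A match describes letters, not a bound site.

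Hes1 (ENSMUSG00000022528), the repressor that Notch switches on, was at 20.01, 17.9 and 16.6 FPKM in HET and at 17.9, 19.75 and 15.4 in WT. The libraries of both genotypes were interleaved. Hes1 did not pass (limma adjusted p = 0.769), its log2 fold change being 0.04 with a 95% confidence interval of -0.21 to 0.29, and the value was negative without HET replicate 1 (-0.03) and without WT replicate 3 (-0.05).

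Atoh1 (ENSMUSG00000073043), the factor that commits crypt cells to secretory fate, was at 3.42, 3.37 and 4.28 FPKM in HET and at 6.08, 5.04 and 7.01 in WT. All 3 HET libraries lay below all 3 WT libraries. Atoh1 fell, with a log2 fold change of -0.58 (SE 0.12, 95% confidence interval -0.87 to -0.29, limma adjusted p = 0.00806), to 61.1% of the WT mean. The call remained with any 1 library left out (adjusted p = 0.00613 to 0.0321) and under each of 4 other scalings, including quantile normalization (-0.39, adjusted p = 0.0439). Relative to the median of all tested rows the log2 fold change was -0.47 as deposited and -0.43 with quantile normalization.

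The Atoh1 start region is shown because Hes1 is known to repress this gene, and because its window held more class C letters than any other window of the 10. It lies on the plus strand at chr6:64728875-64729124 (RefSeq, GRCm38.p6), and capitals mark CACGCG or its reverse CGCGTG.
Atoh1: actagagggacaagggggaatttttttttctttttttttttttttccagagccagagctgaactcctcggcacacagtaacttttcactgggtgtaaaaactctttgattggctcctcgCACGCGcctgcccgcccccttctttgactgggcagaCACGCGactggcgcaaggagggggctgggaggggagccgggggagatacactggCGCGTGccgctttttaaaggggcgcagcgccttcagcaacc
The class C letters stood at 131, 95 and 41 bases before the start. They were in 5 of the 10 windows and in 7.6% of all windows, while the N-box letters CACNAG, the other sequence known for Hes factors, were in 4 of the 10 and in 36.7% of all. Base composition was not matched, and a match says nothing of occupancy.

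Set against Hes1 within each library, Atoh1 was at 17.1%, 18.9% and 25.7% of the Hes1 FPKM in HET and at 34.0%, 25.5% and 45.6% in WT. HET replicate 3 lay just above WT replicate 2, so the genotypes overlapped there, and the other HET libraries lay below every WT library. The log2 ratio, which scaling by 1 factor per library cannot move, was -2.30 ± 0.31 in HET and -1.55 ± 0.42 in WT, a difference of -0.75. With 20 arrangements of the libraries, the exact permutation test, two-sided, gave p = 0.2, and 0.1 is the smallest value this design allows.

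Genes that act beside or after Atoh1 in secretory cells did not all move with it. Of 16 genes on the secretory fate list 13 were tested, 6 fell, 1 rose and 6 did not pass, beside 35.7% lower and 10.7% higher of all tested rows. Gfi1, which holds Atoh1-positive cells to goblet and Paneth fate, fell (1.28 ± 0.0436 against 2.07 ± 0.207, limma adjusted p = 0.00298), as did Creb3l4 (2.33 ± 0.184 against 5.01 ± 1.29, adjusted p = 0.00412) and Creb3l1 (3.94 ± 0.579 against 6.09 ± 0.639, adjusted p = 0.00718), membrane-bound factors of secretory cells. Neurog3, which commits cells to the enteroendocrine lineage, was the member that rose, at 2.01, 1.81 and 1.66 in HET and at 1.23, 1.05 and 1.21 in WT (adjusted p = 0.00532). Spdef, a factor of goblet and Paneth maturation singled out after its values were seen, was at 6.01 ± 0.832 and 5.40 ± 1.07 and did not pass (adjusted p = 0.441). With quantile normalization the list gave 3 lower and 4 higher, and Gfi1 did not pass (adjusted p = 0.165).

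**Figure D3:**
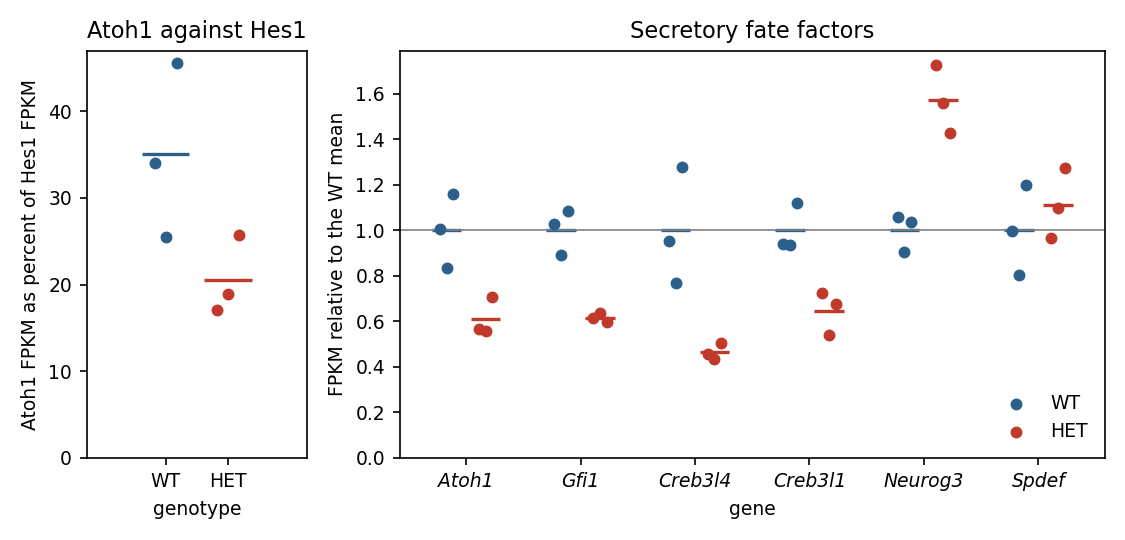
Left, Atoh1 FPKM as a percentage of Hes1 FPKM in each library, with bars at the group means. Right, FPKM of Atoh1 and 5 secretory fate factors in each library relative to the WT mean of that gene, where Atoh1, Gfi1, Creb3l4 and Creb3l1 of HET lie below every WT library, Neurog3 above, and Spdef overlaps.

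The products of the secretory lineages stood beside Atoh1 as follows. The sum of 5 Paneth markers was 128, 279 and 888 FPKM in HET and 9511, 4172 and 12382 in WT, and in each genotype the library with the most Atoh1, replicate 3, also had the largest sum. WT replicate 2 had the least Atoh1 and the smallest sum among the WT libraries, whereas among the HET libraries replicate 2 had the least Atoh1 and replicate 1 the smallest sum. The sum of 6 goblet markers was 1786 to 2629 in HET and 3370 to 4004 in WT, and 5 of the 6 fell, among them Clca1 (63.0 ± 11.3 against 220 ± 37.5) and Tff3 (616 ± 91.4 against 945 ± 83.2). Of 6 enteroendocrine markers 0 fell, 1 rose and 5 did not pass, the one that rose being the hormone gene Sct (25.8 ± 3.39 against 21.04 ± 0.549, limma adjusted p = 0.0480), a call kept without HET replicate 2 and lost without any other single library (adjusted p up to 0.134). Among 5 crypt base markers Lgr5 (0.494 ± 0.0882 against 1.68 ± 0.0552) and Tnfrsf19 fell, while Ascl2 (2.83 ± 0.254 against 2.66 ± 0.190), Smoc2 and Axin2 did not pass. The part of these cell types in the Atoh1 difference was not tested.

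To set epithelial against vascular genes, Notch1, Notch2, Dll1, Hes1 and Atoh1 were counted as epithelial and Notch3, Notch4 and Jag2 as vascular, with Dll4 and Jag1, known from both, left aside. Notch1 was counted as epithelial although T cells also carry it. The mean log2(FPKM + 1) level of the 5 epithelial genes was 2.42, 2.44 and 2.50 in HET and 2.60, 2.63 and 2.61 in WT. That of the 3 vascular genes was 0.39, 0.45 and 0.45 in HET and 0.73, 0.73 and 0.74 in WT. Both means were lower in every HET library, the epithelial by 0.16 and the vascular by 0.30 on average. The epithelial fall was not shared by all 5 genes. Their log2 fold changes were -0.58 for Atoh1, -0.25 for Notch1, -0.10 for Notch2, 0.04 for Hes1 and 0.10 for Dll1. The median of all tested rows was -0.12. The epithelial minus vascular difference was 2.02 ± 0.03 in HET and 1.88 ± 0.02 in WT. That contrast of 0.14 was 0.71 without a pseudocount and 0.06 when Dll4 and Jag1 were counted as vascular, and it is given as a description with no test. Summed FPKM was also further down for the vascular genes, at 0.951 to 1.12 in HET and 1.97 to 2.01 in WT, or 53.4% of WT. The epithelial sums were 34.0 to 34.5 and 34.5 to 37.7, or 95.2%. They overlapped, with HET replicate 1 at 34.52 above WT replicate 3 at 34.46.

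The markers of each compartment gave the frame for these values. Of 10 epithelial markers 1 rose, Elf3 (130 ± 12.7 against 101 ± 2.48), 0 fell and 9 did not pass, and their mean log2 FPKM level was 8.53 ± 0.04 in HET and 8.47 ± 0.02 in WT, with overlap. Of 11 mural markers 10 were tested and all 10 fell, among them Rgs5 (16.8 ± 0.939 against 33.7 ± 1.25), a pericyte gene, and Acta2 (57.5 ± 4.87 against 101 ± 5.97), smooth muscle actin, and the summed level was 156 to 184 in HET and 285 to 310 in WT. The mural list includes smooth muscle genes, such as Acta2, Tagln and Cnn1, that are not restricted to vessels. Its sum therefore does not stand for mural cells alone. All 14 tested endothelial markers fell as well, such as Tek, the angiopoietin receptor (0.696 ± 0.102 against 1.52 ± 0.0423), and Pecam1 (4.36 ± 0.880 against 8.95 ± 0.560). Markers of fibroblasts, stromal cells outside the vessel wall, stood lower still, with 7 of 7 fallen, a sum of 20.4 to 30.6 FPKM in HET and 108 to 124 in WT (22.2% of WT on average), and their part in the differences of Notch3, Notch4 and Jag2 was not tested. Under the 4 other scalings 7 of 7 fibroblast markers were lower, 1 to 6 epithelial markers were higher and 0 lower, 9 or 10 mural markers were lower, and 7 to 13 endothelial markers were lower, the 7 with quantile normalization.

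Taken as log2 ratios to those marker means, the vascular genes overlapped between genotypes. Notch4 relative to the endothelial markers was at -1.30, -1.83 and -1.48 in HET and at -1.68, -1.58 and -1.73 in WT, and Jag2 at -2.02 ± 0.11 and -2.20 ± 0.15. Notch3 relative to the mural markers was at -4.43, -4.21 and -4.63 in HET and at -4.02, -4.02 and -4.23 in WT, where HET replicate 2 lay within the WT range. That marker list includes smooth muscle genes not restricted to vessels, which limits the Notch3 ratio. Dll4 relative to the endothelial markers was higher in HET in every library (1.16 ± 0.18 against 0.70 ± 0.15), and so was Jag1 (0.48 ± 0.39 against -0.64 ± 0.13). Both are also known from epithelium, whose markers did not fall, and their ratios to the epithelial markers are not given. These values therefore do not show a rise relative to all cells that express them. Against the epithelial markers, Atoh1 (-6.65 ± 0.15 against -5.89 ± 0.25) and Notch1 (-7.84 ± 0.09 against -7.39 ± 0.06) remained lower in every HET library, while Hes1 (-4.35 ± 0.18 against -4.34 ± 0.18), Dll1 and Notch2 overlapped. Notch1 is not confined to epithelium, since T cells also carry it, and lymphocyte markers fell. Its ratio therefore does not show a fall within epithelium. These ratios are descriptions, and no test was run on them.

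**Figure D4:**
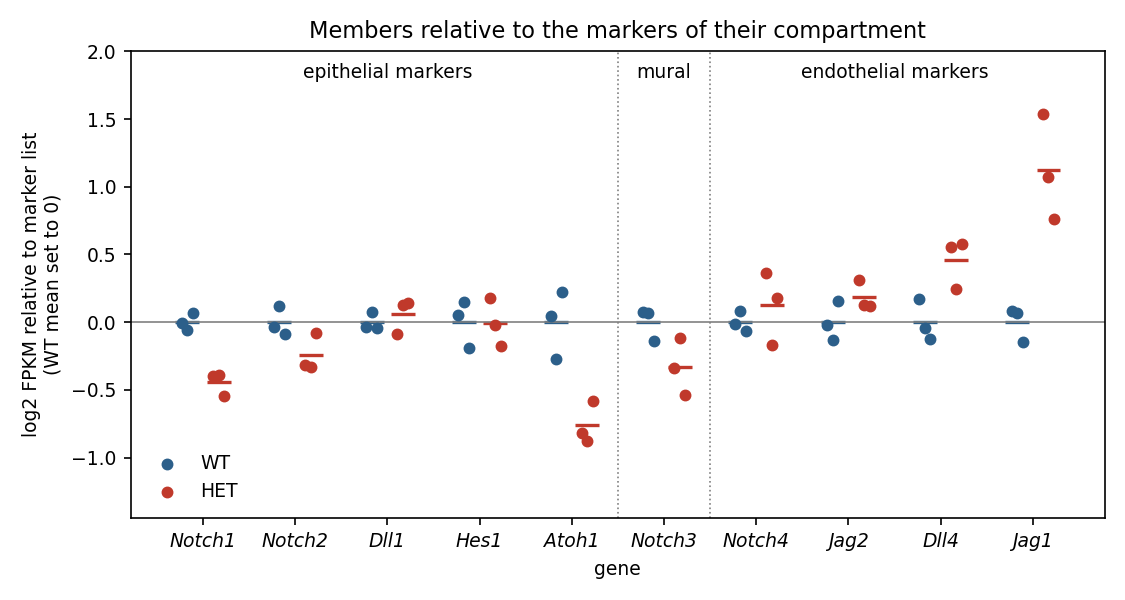
Log2 FPKM of each gene minus the mean log2 FPKM of the marker list it was assigned to in the same library, with the WT mean of each gene set to 0 (WT blue, HET red, bars at group means). Dll4 and Jag1, known from both compartments, are set against the endothelial markers only. All 3 HET libraries lie below every WT library for Atoh1 and Notch1, and above every WT library for Dll4 and Jag1. For Notch4, Jag2, Notch3, Hes1, Dll1 and Notch2 the genotypes overlap.

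The rest of the pathway was described from 8 lists of 81 genes in all, of which 64 were tested, 29 fell, 8 rose and 27 did not pass, with a median log2 fold change of -0.16 against -0.12 over all tested rows. Of all tested rows 35.7% were lower and 10.7% higher, and the counts of each list below stand beside these shares. The balance within the 8 lists moved with the scaling, to 15 lower and 14 higher with median-ratio size factors and 13 lower and 16 higher with quantile normalization. Under all 4 other scalings 17 of the 37 calls held in direction and threshold, 9 lower and 8 higher. The names below follow the fixed rule of at most 4 genes per list unless said otherwise.

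Of 7 genes of ligand release 3 were tested and 2 fell, Mib2 (5.20 ± 0.345 against 7.22 ± 0.329, limma adjusted p = 0.00273) and Neurl1b, ubiquitin ligases that drive ligand endocytosis. Neurl1b lost its call without HET replicate 2, WT replicate 1 or WT replicate 2 (adjusted p up to 0.0648). Of the 5 sugar transferases that modify the receptors 3 fell, Mfng (0.856 ± 0.101 against 1.74 ± 0.130), Lfng (2.01 ± 0.303 against 3.08 ± 0.0798) and Pofut1, and Rfng did not pass (14.1 ± 0.636 against 16.1 ± 1.14, adjusted p = 0.0717). With quantile normalization Lfng (adjusted p = 0.120) and Pofut1 (adjusted p = 0.516) did not pass. Of 10 genes of receptor cleavage 8 were tested and 3 fell, among them the convertase Furin (15.9 ± 0.881 against 19.4 ± 0.622) and the sheddase Adam10 (20.6 ± 1.17 against 24.9 ± 0.680). Adam10 lost its call without WT replicate 3 (adjusted p = 0.0519). The 3 calls of that list were lost with median-ratio scaling, where 0 were lower and 2 higher.

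In the nucleus, Rbpj, the DNA-binding partner of all 4 receptors, fell (4.25 ± 0.455 against 6.05 ± 0.420, limma adjusted p = 0.00607), at 3.77, 4.67 and 4.301 FPKM in HET and 6.34, 5.57 and 6.25 in WT. With quantile normalization Rbpj did not pass (adjusted p = 0.0515). Kat2a, an acetyltransferase that can assist the complex, rose (6.84 ± 0.413 against 5.03 ± 0.377, adjusted p = 0.00545), and the other 5 tested genes of the nuclear complex did not pass. Of 10 corepressor genes 4 fell, including Ncor1 (18.1 ± 1.68 against 24.9 ± 0.682), and 1 rose, Tle1, a Groucho family partner of Hes proteins. Tle1 was at 31.2, 32.0 and 32.4 in HET and at 17.2, 17.5 and 17.4 in WT, 1.83-fold higher (adjusted p = 9.17e-05), and it was called higher under each of the 4 other scalings.

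Of 11 genes of receptor turnover 8 fell and 1 rose, and 5 were lower without any single library other than HET replicate 1, where 7 were. Dtx3, of the Deltex family, was at 1.56 ± 0.0710 against 4.51 ± 0.486 (limma adjusted p = 0.00016), Dtx1, itself a Notch-induced gene of lymphocytes, at 2.40 ± 0.397 against 4.62 ± 0.120, and Numbl, a Numb relative, at 0.505 ± 0.111 against 1.30 ± 0.0514. Dtx2, another Deltex gene, rose (3.40 ± 0.177 against 2.32 ± 0.0599, adjusted p = 0.00189). Numb, the classical Notch inhibitor, named after its values were seen, was at 35.6 ± 3.50 against 35.9 ± 2.31 and did not pass (adjusted p = 0.898). With median-ratio size factors 4 of the 11 were lower and 1 higher.

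Of 13 other genes on a list of Notch targets and Hes family genes, 7 were tested, 4 rose, 2 fell and 1 did not pass. The median log2 fold change of the 7, Hes2 among them, was 0.32. Membership of the Hes family does not by itself make a gene a Notch target. Nrarp, a feedback inhibitor that Notch induces, rose (11.6, 10.6 and 9.96 FPKM in HET against 8.48, 8.27 and 8.43, limma adjusted p = 0.00759). Myc (20.8 ± 1.86 against 9.59 ± 0.376) and Ccnd1 (34.4 ± 5.58 against 22.5 ± 1.55), growth genes that many other signals also induce, rose, as did Hes2 (10.2 ± 1.26 against 7.79 ± 0.603). Olfm4, a stem cell gene that depends on Notch in the small intestine, fell (166 ± 5.56 against 206 ± 16.0, adjusted p = 0.0135), and so did Sox9 (1.94 ± 0.298 against 2.69 ± 0.215, adjusted p = 0.0225). Hes2 and Sox9 are named after their values were seen. Left-out libraries ended some of these calls: Hes2 without HET replicate 2, WT replicate 1 or WT replicate 3 (adjusted p up to 0.0825), Olfm4 without HET replicate 2 or WT replicate 3 (up to 0.0543), and Sox9 without HET replicate 2 or 3 or WT replicate 1 or 2 (up to 0.0758). All 4 rises were called under each of the 4 other scalings, while with median-ratio size factors 0 fell. The classical targets Hey1, Hey2, Heyl and Hes5 lay under the filter, and Hey1 was at 0.606 ± 0.0962 in HET and 0.590 ± 0.0158 in WT.

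**Figure D5:**
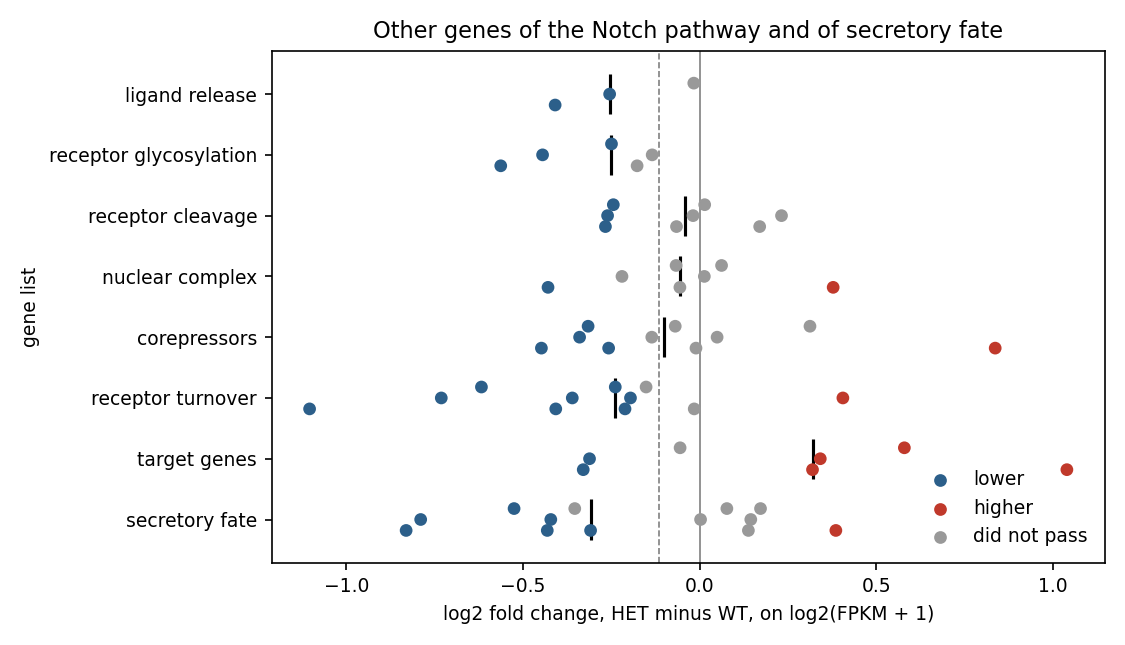
Log2 fold change (HET minus WT, on log2(FPKM + 1)) of every tested gene of the 8 lists (blue lower, red higher, grey did not pass), with a black tick at each list's median and a dashed line at -0.12, the median of all tested rows. The median of the target list, which includes Hes2, lies at 0.32, and Dtx3 is the point farthest to the left.

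Across the 6 libraries the genes whose log2 levels ran most like Hes1 were Zbtb25, Kdm4b and Pex19, with Pearson correlations of 0.99, 0.97 and 0.96 among 11066 named candidates, of which 29 passed 0.9. For Atoh1 they were Alpk1, Tppp and Fam3b, at 0.997, 0.997 and 0.996, with 1332 candidates past 0.9. For Notch3 they were Pik3r5, Rac2, a small GTPase of blood cells, and Pirt, at 0.9998, 0.999 and 0.999, with 2795 past 0.9. The genes share the 6 libraries and, for Atoh1 and Notch3, the split by genotype, and the correlations are given without a test.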

How the data were processed

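RNA of mouse intestine was captured with oligo(dT) beads and made into libraries with a SMARTER mRNA-seq kit, per the labels' protocols. The authors deposited FPKM for 6 libraries in 1 table, and the submitters' processing notes name the build GRCm39. The sources used here name no aligner, counter, annotation or use of strand, so overlapping antisense genes cannot be told apart. Because FPKM is relative to each library's total, abundant genes that change shift the rest. From it, log2(FPKM + 1) was fitted with limma 3.58.1 in R 4.3.3 (eBayes with trend, genotype as the term), over rows that reached an FPKM of 1 in 3 or more libraries. The fit was tested on simulated data. It recovered 118 of 200 genes changed by a log2 fold change of 0.5 and 177 of 200 changed by 1. False calls were 3 and 11. Each of these runs changed 200 of 11870 rows, whereas 35.7% of the tested rows of the real table were called lower and 10.7% higher. Whether the recovery and the false calls carry over to a table with that many calls was not tested. Changes of both sizes were missed in part, and a gene that did not pass may still differ. Depth was read from the lowest FPKM times transcript length of single-transcript genes (GENCODE M21, on GRCm38), searched from 10 to 50 in units of 1e6 fragments, and is rough. Promoter sequences are RefSeq's on GRCm38.p6. No library pair held identical values (0 pairs). Atoh1 over Hes1 was tested with an exact permutation test. Same-numbered libraries were checked for pairing, and their deviations correlated at -0.03, 0.13 and 0.32. HET replicate 1 correlated more with WT replicate 2 (0.25), while HET replicates 2 and 3 correlated best with their own number. So few libraries cannot exclude pairing, and the main fit used none.

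The 10 genes and all lists were chosen with earlier results of these data known. The naming rule took the 10 genes, at most 4 tested genes per list by moderated statistic, the 3 genes nearest to Hes1, Atoh1 and Notch3, and Rnf111. Exceptions are marked, and 1 gene of the receptor cleavage list that the rule names is not reported here. Other software was Python 3.11.15 with SciPy 1.17.1, pandas 2.3.3, matplotlib 3.10.9 and numpy 2.4.6.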

Additional observations from a re-analysis of the deposited data

How the results depend on the processing

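Alternatives were a pseudocount of 0.1, no filter, a minimum mean FPKM of 5, 3 other scalings, eBayes without trend, the replicate number as a block and leaving out each library. Median-ratio factors over all rows above 0, the score without a pseudocount and the scalings and left-out libraries of the fit without a filter were added after seeing the data. Over all tested rows 1269 were higher and 4235 lower. The higher count was 2731 with median-ratio size factors, 3680 with those over all rows above 0 and 2929 with quantile normalization, and the lower count was 1853 at a mean FPKM of at least 5 (7341 rows tested), 2456 with median-ratio factors over all rows above 0 and 2153 with quantile normalization. With each library left out in turn, 754 to 1610 were higher and 3150 to 4409 lower, the higher count being 834 without HET replicate 2, 754 without WT replicate 1, 844 without WT replicate 2 and 802 without WT replicate 3.

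Of the 10 genes, those called higher went from 0 to 1 with median-ratio size factors (Jag1), to 2 with those over all rows above 0 (Dll1 and Jag1), to 2 with quantile normalization (Notch2 and Jag1), and ranged from 0 to 1 with a library left out. Those called lower went from 3 to 5 without a filter, to 0 at a mean FPKM of at least 5, where 2 of the 10 were tested, to 1 with median-ratio factors over all rows above 0 and to 1 with quantile normalization, that 1 being Atoh1 in both. Dll4 also lost its call without a filter (adjusted p = 0.0666) with a common sum (adjusted p = 0.0939), with median-ratio size factors (-0.23, adjusted p = 0.153), with those over all rows above 0 (adjusted p = 0.261) and with quantile normalization (adjusted p = 0.487). The log2 fold change changed sign for Notch1 with quantile normalization (0.0505), for Notch2 with median-ratio factors over all rows above 0 (0.0132) and quantile normalization (0.31), and for Hes1 without HET replicate 1 (-0.03) and without WT replicate 3 (-0.0496), where leaving out each library in turn gave -0.0496 to 0.121. The cause was not tested.

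The pathway and fate lists went from 8 higher to 14, 17 and 16 with median-ratio factors, those over all rows above 0 and quantile normalization, and from 29 lower to 15, 14 and 13, and to 11 at a mean FPKM of at least 5 (36 tested). The epithelial minus vascular contrast of 0.14 was 0.55 with a pseudocount of 0.1, 0.71 with none, 0.0568 with Dll4 and Jag1 as vascular and 0.199 with median-ratio size factors. Atoh1 relative to Hes1 stayed negative in each alternative run (-0.959 to -0.541).

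Same-numbered libraries share only a number, and HET replicate 1 did not correlate best with its own number. With the replicate block 1167 rows were higher and 3915 lower, and Dll4 (adjusted p = 0.0755) and Sct did not pass, nor did Jag2 in the fit without a filter (adjusted p = 0.0527). Low depth limits Notch3, Notch4 and Jag2 most.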
